A study of Mus musculus with 6 samples.

Results

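The 10 genes described here encode the NF-kB transcription factor subunits Nfkb1, Nfkb2, Rel, Rela and Relb and a group listed as inhibitors. That group is Bcl3, Nfkbia, Nfkbie, Nfkbiz and Tnfaip3, of which Bcl3 and Nfkbiz encode nuclear IkB proteins. The 10 genes were taken by gene symbol from a deposited table of 24421 genes. All 10 were found in it and all 10 were among the 13010 genes tested. The libraries are poly(A) RNA from dendritic cells sorted out of the bone marrow of C57BL/6 mice. The 3 TCL libraries, numbered 4, 8 and 10, come from mice labelled as a murine model of chronic lymphocytic leukaemia made by adoptive transfer, that is, by transplanting leukaemic B cells. The 3 wild-type (WT) libraries are numbered 3, 7 and 9. No source used here gives the age of the mice, the time after transfer, any treatment of the WT mice, the markers of the sort or how many mice made a library. The p-values therefore measure the spread between these libraries, which may be partly technical.

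NF-kB subunits act as pairs. In the canonical branch, signals from Toll-like, interleukin 1 and tumour necrosis factor receptors activate the IkB kinase complex, which marks the cytoplasmic inhibitor IkB-alpha, the product of Nfkbia, for destruction and frees Rela and the short form of Nfkb1. In the noncanonical branch, receptors such as CD40 and the lymphotoxin receptor stabilise the kinase encoded by Map3k14, which drives processing of the Nfkb2 precursor and frees Relb pairs. Several inhibitor genes are themselves NF-kB targets and close a feedback loop, and dendritic cells use both branches when they mature. RNA levels show neither processing of the precursors nor entry of the proteins into the nucleus.

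Recovered read totals ran from 17158819 to 25674314 per library. Read counts of libraries of 1 group differed beyond sampling noise in every pair (chi-square per degree of freedom 26.6 to 125). The pairs that held WT 7 or TCL 8 differed more than the remaining pair of their group. The dendritic marker list, with 13 of 13 genes in the table, summed to 37494, 16641 and 33823 CPM (reads scaled to the size of the library) in TCL 4, 8 and 10, against 63173, 47950 and 58460 CPM in WT 3, 7 and 9, with Cd74 its most abundant gene. Of its genes 4 of 13 fell, while its surface marker Itgax had 516, 375 and 655 CPM in TCL against 512, 383 and 528 CPM in WT. The neutrophil list, with 13 of 14 genes in the table, summed to 14341 to 31574 CPM in TCL and 28010 to 58142 CPM in WT. The macrophage list (11 of 11) summed to 1350 to 3815 CPM in TCL and 4806 to 5645 CPM in WT, and the B cell list (10 of 10) to 222 to 306 CPM in TCL and 353 to 814 CPM in WT. In the macrophage list 1 gene rose and 4 fell, and in the B cell list 5 fell. In the stromal list (9 of 9) 1 gene rose and 5 fell. Its gene Cxcl12 had 1.13 to 6.69 CPM in TCL against 62.2 to 222 CPM in WT, while Pecam1, the most abundant, had 169 to 261 CPM in TCL against 86.8 to 96.4 CPM in WT. The stromal, T and natural killer cell (6 of 6) and erythroid (7 of 7) lists each summed to at most 428 CPM in every library. In the erythroid list Hba-a1, Hba-a2 and Hbb-bt had 0 reads, and TCL 8 had the highest sum, at 296 CPM. The part of this mixture in the results below was not tested. In bulk RNA, fewer cells of a type and less RNA per cell cannot be told apart.

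Promoter windows of 7 of the 10 genes were found in a RefSeq table (GRCm38.p6). Entries for Nfkb1, Relb and Nfkbiz were not in it. The windows printed below, of 4 genes, all hold matches to the motifs marked, so they do not stand for all windows searched. The RNA of Bcl3 and that of Nfkb2 and Tnfaip3 followed different patterns across the TCL libraries. Each line gives 250 bases before and 30 bases after the annotated start of transcription, 5′ to 3′ on the strand of the gene. Capitals mark matches to GGNNTTTCC or GGGANTNCC, both parts of the NF-kB type motif, searched on both strands.
Bcl3 (chr7:19822726-19823005, minus strand): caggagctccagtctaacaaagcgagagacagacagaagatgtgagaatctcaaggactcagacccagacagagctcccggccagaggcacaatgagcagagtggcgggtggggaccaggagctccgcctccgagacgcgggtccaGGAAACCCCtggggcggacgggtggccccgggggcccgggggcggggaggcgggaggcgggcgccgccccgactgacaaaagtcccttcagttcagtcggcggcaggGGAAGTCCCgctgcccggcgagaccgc
Nfkbia (chr12:55492618-55492897, minus strand): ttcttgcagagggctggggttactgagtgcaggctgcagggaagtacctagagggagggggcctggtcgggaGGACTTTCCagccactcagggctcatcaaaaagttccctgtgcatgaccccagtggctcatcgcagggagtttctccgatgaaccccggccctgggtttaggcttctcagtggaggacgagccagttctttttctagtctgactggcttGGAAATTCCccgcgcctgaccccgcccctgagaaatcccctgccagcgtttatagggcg
Nfkb2 (chr19:46304487-46304766, plus strand): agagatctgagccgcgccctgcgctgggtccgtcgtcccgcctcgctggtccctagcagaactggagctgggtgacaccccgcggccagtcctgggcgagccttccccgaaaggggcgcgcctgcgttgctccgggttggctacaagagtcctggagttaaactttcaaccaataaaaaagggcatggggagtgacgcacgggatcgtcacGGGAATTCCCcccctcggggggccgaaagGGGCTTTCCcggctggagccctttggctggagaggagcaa
Tnfaip3 (chr10:19015381-19015660, minus strand): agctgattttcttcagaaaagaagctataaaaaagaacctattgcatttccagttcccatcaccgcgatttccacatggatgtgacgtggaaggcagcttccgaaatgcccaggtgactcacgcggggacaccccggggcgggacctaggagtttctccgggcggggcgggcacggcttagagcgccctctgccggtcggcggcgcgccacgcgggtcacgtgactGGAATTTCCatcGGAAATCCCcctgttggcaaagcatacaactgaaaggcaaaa

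The windows searched were 300 bases long. The matches began 104 bases before and at base 4 after the start of Bcl3, 178 and 29 bases before the start of Nfkbia, 39 and 10 bases before that of Nfkb2, and 24 and 12 bases before that of Tnfaip3. In Nfkb2 the match to GGGANTNCC lay on both strands, offset by 1 base. The 7 genes had 10 windows, as Nfkb2 and Tnfaip3 had more than 1. The motif GGNNTTTCC was in 7 of the 10 windows, from 5 of the 7 genes, and in 5.82% of all 32851 promoter windows. The Nfkb2 windows not printed overlap and share the same match. GGGANTNCC was in 4 of the 10 windows, each of a different gene, and in 3.95% of all windows. The 2 motifs can overlap, as they do in Rel and at the second Tnfaip3 match. Either motif was in 7 of the 10 windows and in 9.25% of all windows. The STAT type motif TTCNNNGAA was in 1 of the 10 windows, of Nfkb2, and in 8.30% of all windows. The windows of Rela and Nfkbie and the Tnfaip3 window not printed held none of the 3 motifs. A match describes these letters only and shows no binding.

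At a threshold of 0.05 on the adjusted p of edgeR, Bcl3 was the 1 gene of the 10 that rose, 0 fell and 9 were not called. Of all tested genes 4.64% were called in either direction, 2.03% as higher in TCL and 2.61% as lower. All 10 genes had a positive log2 fold change, with a median of 0.58, against a median of 0.00 over all tested genes. As the 10 genes were chosen with earlier results of these data known, the comparisons with all tested genes are descriptions only. An unadjusted p under 0.05 in the upward direction was reached by 6 of the 10 genes, Bcl3, Nfkb2, Relb, Nfkbia, Nfkbiz and Tnfaip3, and by 11.2% of all tested genes. Every TCL library lay above every WT library for 3 of the 10, Bcl3, Nfkbia and Nfkbiz, and for 14.1% of all tested genes. DESeq2 called 3 of the 10, the same 3 genes, all higher in TCL, and it called 4.84% of the genes it adjusted as higher in TCL. In the authors' deposited table Bcl3, Nfkbia and Nfkbiz had adjusted p-values of 8.02e-10, 0.0390 and 0.0240, and the other 7 genes had adjusted p-values above 0.07.

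Bcl3, an atypical IkB protein that works in the nucleus with pairs of the short Nfkb1 and Nfkb2 products, had the largest change of the 10. Its level was 238, 216 and 244 CPM in TCL 4, 8 and 10, against 99.2, 90.7 and 115 CPM in WT 3, 7 and 9. All 3 TCL libraries lay close together and well above the WT libraries. The mean was 233 ± 15.0 CPM in TCL and 102 ± 12.3 CPM in WT (SD, n = 3 each), a log2 fold change of 1.20 (SE 0.15, 95% interval 0.86 to 1.53, edgeR adjusted p 0.00310), or 2.29-fold. It was called in all 14 other settings, with log2 fold changes from 1.12 to 1.31 and adjusted p-values up to 0.0224. On GRCm38, the build of all positions given here, it spans 19808462 to 19822770 of chromosome 7, minus strand. The antisense genes Gm16174 and Gm16175 overlap it, and since the strand setting of the counting is not given, their reads cannot be told apart from those of Bcl3.

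**Figure D1:**
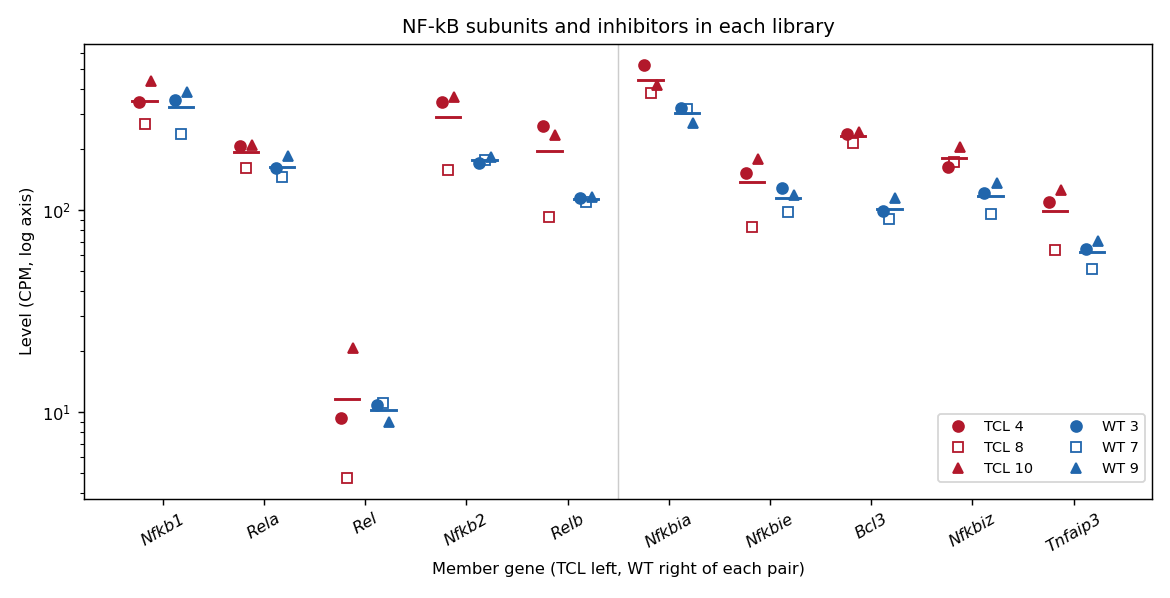
Levels of the 10 genes in each library on a log axis in CPM, TCL left and WT right of each pair, with bars at group means; open squares are TCL 8 and WT 7. For Bcl3 the TCL libraries sit at 216 to 244 CPM, above all WT libraries, while for Nfkb2 and Relb the square of TCL 8 lies below the WT libraries and the other TCL libraries lie above them.

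Nfkbiz encodes the other nuclear IkB protein of the set, a cofactor that many late inflammatory genes require. It had 164, 174 and 207 CPM in TCL 4, 8 and 10, against 122, 95.3 and 137 CPM in WT 3, 7 and 9. Every TCL library was higher than every WT library, and TCL 8 was not the lowest of its group. The log2 fold change was 0.62 (SE 0.18, 95% interval 0.23 to 1.01) and did not pass in edgeR (adjusted p 0.0793). It lies at 55811375 to 55838899 of chromosome 16.

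Nfkbia, the main cytoplasmic inhibitor, had the highest level of the 10 per kb of transcript. It had 526, 381 and 419 CPM in TCL 4, 8 and 10, against 321, 319 and 271 CPM in WT 3, 7 and 9. The groups did not overlap, and TCL 8 was the lowest TCL library. The log2 fold change was 0.54 (SE 0.17, 95% interval 0.17 to 0.92) and did not pass in edgeR (adjusted p 0.100), but passed with scaling to library size only (0.0417). The gene lies at 55489410 to 55492647 of chromosome 12. Nfkbie, a second cytoplasmic inhibitor that holds Rel and Rela pairs, had 154, 82.6 and 179 CPM in TCL 4, 8 and 10, against 129, 97.8 and 119 CPM in WT 3, 7 and 9. Here TCL 8 lay below all WT libraries, and TCL 4 and TCL 10 lay above them. Its log2 fold change was 0.27 (SE 0.26, 95% interval -0.31 to 0.85, edgeR adjusted p 0.571), and it lies at 45555703 to 45563169 of chromosome 17.

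Tnfaip3 encodes A20, an enzyme that edits ubiquitin chains on signalling proteins upstream of the kinase complex. It had 109.8, 63.3 and 126 CPM in TCL 4, 8 and 10, against 64.2, 51.4 and 70.3 CPM in WT 3, 7 and 9. TCL 4 and TCL 10 were above all WT libraries, and TCL 8 was within the WT range. The log2 fold change was 0.69 (SE 0.25, 95% interval 0.14 to 1.24) and did not pass with all libraries (edgeR adjusted p 0.145), but passed without TCL 8 (log2 fold change 0.93, adjusted p 0.0154). The gene lies at 19000910 to 19015657 of chromosome 10.

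The noncanonical subunits Nfkb2 and Relb split the TCL libraries in the same way. Nfkb2 had 344, 159 and 362 CPM in TCL 4, 8 and 10, against 171, 177 and 183 CPM in WT 3, 7 and 9. Relb had 261, 92.4 and 237 CPM in TCL 4, 8 and 10, against 115, 109.7 and 116 CPM in WT 3, 7 and 9. The WT libraries agreed closely for both genes, TCL 4 and TCL 10 lay well above them, and TCL 8 lay below every WT library. The group means were 288 ± 112 CPM in TCL and 177 ± 6.03 CPM in WT for Nfkb2, and 197 ± 91.1 CPM in TCL and 114 ± 3.40 CPM in WT for Relb (SD, n = 3 each). With all libraries the log2 fold change was 0.71 for Nfkb2 (SE 0.27, edgeR adjusted p 0.170) and 0.79 for Relb (SE 0.32, edgeR adjusted p 0.186), and neither passed. Without TCL 8 both passed, at 0.999 for Nfkb2 (adjusted p 0.00453) and 1.13 for Relb (adjusted p 0.00260).

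Leaving out TCL 8 raised the count of the 10 genes called to 4, Bcl3, Nfkb2, Relb and Tnfaip3, all higher in TCL, while 3.56% of the genes tested were then called higher. Leaving out any other single library left 1 of the 10 called. Of all tested genes, 98 (without WT 3) to 167 (without TCL 10) were then called higher, against 264 with all libraries. No label sets TCL 8 apart. Where TCL 8 is the low TCL library of a gene, leaving it out raises the fold change by construction. All calls given here without TCL 8 are conditional on that omission. TCL 8 was the lowest TCL library for 9 of the 10 genes, all but Nfkbiz, against 35.4% of all tested genes. The log2 ratio of TCL 8 to the mean of TCL 4 and TCL 10 was -1.67 for Rel, -1.43 for Relb, -1.15 for Nfkb2, -1.01 for Nfkbie and -0.90 for Tnfaip3. It was -0.54 for Nfkb1, -0.37 for Rela, -0.31 for Nfkbia, -0.16 for Bcl3 and -0.09 for Nfkbiz. The median of this ratio over all tested genes was 0.00. Of the TCL libraries, TCL 8 had the lowest dendritic and T and natural killer cell marker sums and the highest neutrophil, macrophage, B cell, stromal and erythroid sums. Single genes did not all follow these sums. In the dendritic list Cd74, H2-Aa, H2-Ab1, Itgax, Zbtb46, Irf4 and Xcr1 were lowest in TCL 8, while Flt3, Batf3, Irf8, Siglech, Bst2 and Clec9a were not. Pecam1 made up 261 of the stromal 290 CPM in TCL 8. In TCL 8 and TCL 4 the B cell sums were close, at 306 and 300 CPM, as were the T and natural killer cell sums, at 53.6 and 57.9 CPM. The part of these sums in the difference was not tested.

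**Figure D2:**
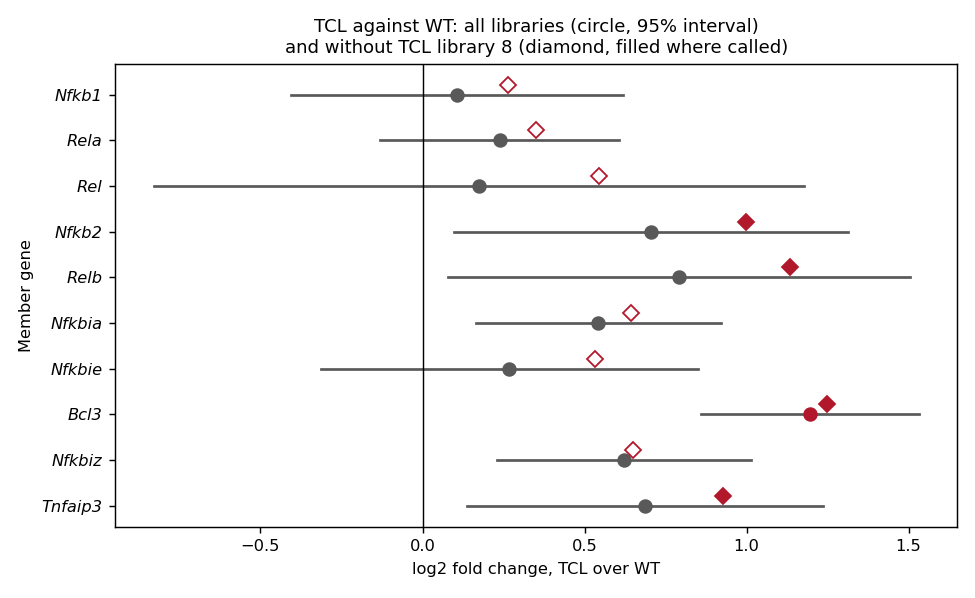
Log2 fold change of TCL over WT for each gene, as circles with 95% intervals for all libraries and as diamonds without TCL library 8, coloured or filled where called. Only Bcl3 is called with all libraries, and Nfkb2, Relb and Tnfaip3 join it without TCL library 8.

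Nfkb2 and Relb followed similar patterns. The ratio of Relb to Nfkb2, scaled by transcript length, was 1.08, 0.827 and 0.929 in TCL 4, 8 and 10, against 0.960, 0.882 and 0.902 in WT 3, 7 and 9. Their centred log2 levels differed by a root mean square of 0.12 over the 6 libraries. Of the genes with a mean of at least 5 CPM, 0.0495% lay as near to Nfkb2, or as near to Relb. This share counts the partner gene, and the pair was the nearest of all pairs among the 10 genes, so the share is that of the most extreme pair. Other genes lay nearer, such as Rilp to Nfkb2 (0.09) and Ace to Relb (0.06). For Tnfaip3 and Nfkb2 the share was 0.287% for genes as near to Nfkb2 and 0.791% for genes as near to Tnfaip3. These patterns describe 6 libraries. Nfkb2 and Relb lie on different chromosomes, Nfkb2 at 46304320 to 46312385 of chromosome 19 and Relb at 19606217 to 19629438 of chromosome 7. Psd overlaps Nfkb2 on the opposite strand and had 2167 reads over the 6 libraries. The noncoding gene AC114539.1 also overlaps Nfkb2 on the opposite strand. Without the strand setting, reads of shared bases cannot be told apart from those of Nfkb2. Relb lies 179 kb from Bcl3, which was high in TCL 8. Of 10 protein-coding genes between them 6 were tested and 1 was called, Apoe, which was lower in TCL (log2 fold change -1.59, edgeR adjusted p 0.00806).

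The canonical subunits showed no call in any setting. Rela, the main activating subunit, had 209, 163 and 211 CPM in TCL 4, 8 and 10, against 162, 147 and 186 CPM in WT 3, 7 and 9. The groups overlapped, and the log2 fold change was 0.24 (SE 0.16, 95% interval -0.13 to 0.61, edgeR adjusted p 0.417). It lies at 5637483 to 5648130 of chromosome 19. Nfkb1 had 342, 268 and 437 CPM in TCL 4, 8 and 10, against 349.8, 238 and 383 CPM in WT 3, 7 and 9. TCL 8 and WT 7 were the low libraries of their groups, and the log2 fold change was 0.11 (SE 0.23, 95% interval -0.40 to 0.62, edgeR adjusted p 0.814), which turned to -0.0712 without WT 7 and -0.0717 without TCL 10. Gm43430 overlaps Nfkb1 on the same strand, so reads of shared bases cannot be told apart by strand. Rel, a subunit that dendritic cells use for interleukin 12 genes, had 9.32, 4.73 and 20.7 CPM in TCL 4, 8 and 10, against 10.9, 11.1 and 8.95 CPM in WT 3, 7 and 9. Its TCL libraries lay both above and below the WT libraries. Rel lies at 23736847 to 23770970 of chromosome 11, and Nfkb1 at 135584655 to 135691547 of chromosome 3. The log2 fold change was 0.17 (SE 0.45, 95% interval -0.83 to 1.18, edgeR adjusted p 0.849), and it turned to -0.53 without TCL 10. The intervals of all 3 genes include changes in both directions.

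Levels were compared between genes per kb of the longest principal transcript. In WT the order was Nfkbia at 192 ± 18.0 CPM per kb, Nfkb1 at 78.7 ± 18.5, Rela at 60.6 ± 7.29, Nfkb2 at 56.3 ± 1.92, Bcl3 at 54.9 ± 6.64, Relb at 51.4 ± 1.54, Nfkbie at 47.2 ± 6.46, Nfkbiz at 28.7 ± 5.10, Tnfaip3 at 14.0 ± 2.18 and Rel at 1.38 ± 0.158 (SD, n = 3 each). The WT ranges of neighbours in this order overlapped throughout the stretch of genes that runs down to Nfkbie after Nfkbia, and no neighbours overlapped elsewhere. In TCL, Bcl3 was second in the order, at 126 ± 8.12 CPM per kb, after Nfkbia at 280.2 ± 47.6 CPM per kb. The place of Nfkb1 depends on the length used. With the merged length of all its exons, an alternative chosen after seeing the data, its share of subunit transcripts in WT was 17.8%, below Rela at 35.8%, Nfkb2 at 25.9% and Relb at 19.6%, against 31.4% with the principal transcript.

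The 5 subunits together came to 389, 218 and 409 CPM per kb in TCL 4, 8 and 10, against 252, 219 and 273 CPM per kb in WT 3, 7 and 9. TCL 8 had the lowest sum of all 6 libraries. The 5 genes listed as inhibitors came to 590.1, 449 and 549.96 CPM per kb in TCL 4, 8 and 10, against 354, 326 and 332 CPM per kb in WT 3, 7 and 9, so all TCL libraries were above all WT libraries. This sum includes the nuclear proteins' genes Bcl3 and Nfkbiz, so it is not a measure of inhibition alone. The sum of these 5 genes per subunits was 1.52, 2.06 and 1.35 in TCL 4, 8 and 10, against 1.40, 1.49 and 1.21 in WT 3, 7 and 9, and the groups overlapped. Relb made up 30.4%, 19.2% and 26.2% of subunit transcripts in TCL 4, 8 and 10, against 20.7%, 22.6% and 19.2% in WT 3, 7 and 9. Nfkb1 made up 21.4%, 29.8% and 25.96% in TCL 4, 8 and 10, against 33.7%, 26.4% and 34.1% in WT 3, 7 and 9. Rel held under 1% in every library. Shares depend on the length assumed for each gene, whereas their order between libraries does not turn on the scaling of libraries.

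**Figure D3:**
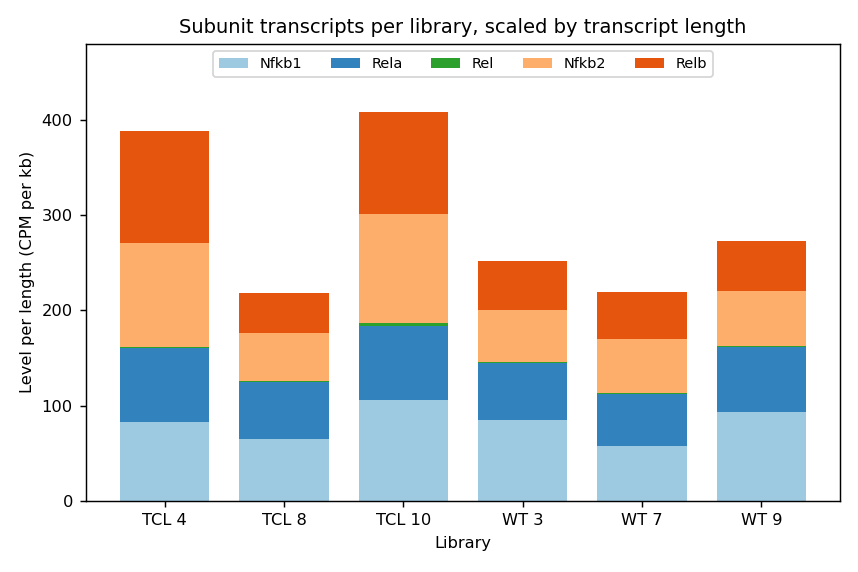
Subunit transcripts in each library, stacked, in CPM per kb of transcript, TCL libraries left and WT libraries right. TCL 4 and TCL 10 reach 389 and 409 CPM per kb, with larger Nfkb2, Relb and Rela segments than every WT library. The Nfkb1 segment is also larger in TCL 10 but not in TCL 4. TCL 8, at 218 CPM per kb, is close to WT 7 at 219 CPM per kb.

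Ratios within a library do not depend on how libraries were scaled. Bcl3 per Nfkb1 was 1.55, 1.79 and 1.24 in TCL 4, 8 and 10, against 0.631, 0.848 and 0.667 in WT 3, 7 and 9, with no overlap. Bcl3 per Relb was 1.09, 2.79 and 1.23 in TCL 4, 8 and 10, against 1.03, 0.987 and 1.18 in WT 3, 7 and 9. The TCL 8 value stood far above the other 5 libraries, and TCL 4 was within the WT range. Relb per Rela was 1.53, 0.699 and 1.38 in TCL 4, 8 and 10, against 0.877, 0.920 and 0.767 in WT 3, 7 and 9. The genes whose pattern over the 6 libraries lay nearest to that of Bcl3 were Lima1, Pag1 and Mfsd7a, with root mean square differences of 0.09, 0.10 and 0.11 in centred log2 CPM. Their log2 fold changes were 1.21, 1.05 and 1.002, which lie near that of Bcl3 by the way these genes were picked. The call of Mfsd7a was lost without any single library but TCL 8, with edgeR adjusted p up to 0.0971.

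Around the 10 genes, 7 lists of pathway genes held 105 further genes, of which 100 were tested. Calls were made for 9 that rose and 6 that fell, leaving 85 uncalled, with a median log2 fold change of 0.28, against a median of 0.00 and shares of 2.03% higher and 2.61% lower over all tested genes. The lists were chosen with earlier results of these data known, so this comparison is a description and not independent support. The counts were 19 higher and 7 lower without TCL 8, 7 and 2 without TCL 10, 5 and 2 without WT 9 or TCL 4, 6 and 2 without WT 3, and 5 and 3 without WT 7. Over all tested genes, 475 were higher and 429 lower without TCL 8, and 167 and 221 without TCL 10. These counts were 120 and 150 without WT 9, and 116 and 130 without TCL 4. Without WT 3 they were 98 and 177, and without WT 7 they were 122 and 177. The 6 pathway genes called whichever library was left out were Ccl22, Ikbke, Irak3, N4bp1, Tnfaip2 and Tnfrsf13c. With scaling to library size only, 10 pathway genes were called higher and 3 lower, against 352 and 296 of all tested genes. Cd83, Tnfrsf11a and Tnfsf13b were then no longer called.

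Among 7 tested ligands, Il1b rose and Tnfsf13b fell. Il1b, the inflammatory cytokine interleukin 1 beta, had 336, 371 and 324 CPM in TCL 4, 8 and 10, against 224, 124 and 121 CPM in WT 3, 7 and 9. The TCL libraries lay together, and WT 3 was the high WT library. Its log2 fold change was 1.14 (edgeR adjusted p 0.0316), and the call was lost without WT 7 (0.0964), WT 9 (0.0855) or TCL 4 (0.0848). Tnfsf13b, which encodes the B cell survival factor BAFF, had a log2 fold change of -0.88 (edgeR adjusted p 0.0413), and its call held when TCL 8 was left out but not when any other library was. The lymphotoxin genes Lta and Ltb had log2 fold changes of 1.19 and 0.34 and did not pass (edgeR adjusted p 0.241 and 0.395), and Lta stayed under 2 CPM.

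Among 15 receptors 2 fell and 0 rose. Tnfrsf13c, the BAFF receptor of B cells, had 10.2, 11.4 and 8.13 CPM in TCL 4, 8 and 10, against 22.1, 31.5 and 28.3 CPM in WT 3, 7 and 9, a log2 fold change of -1.46 (edgeR adjusted p 0.00751). The B cell marker sums moved with it, as given above. Tnfrsf11a, the receptor for the osteoclast and dendritic cell factor RANKL, had a log2 fold change of -0.76 (edgeR adjusted p 0.0346), a call that held when TCL 8 was left out but not when any other library was. Tlr6 and Tlr7, sensors of lipopeptides and of RNA, had log2 fold changes of 1.02 and 0.68 and did not pass (edgeR adjusted p 0.0673 and 0.0962). Both passed without TCL 8 (adjusted p 0.0266 and 0.0303) and with DESeq2 (0.00938 and 0.0294), and Tlr6 also with scaling to library size only (0.0436) and with no filter (0.0418).

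Calls among the 20 adaptors were 2 upward and 1 downward. Irak3, an inhibitory member of the IRAK family that limits Toll-like receptor signalling, had 104, 85.4 and 114 CPM in TCL 4, 8 and 10, against 48.1, 34.8 and 48.2 CPM in WT 3, 7 and 9, a log2 fold change of 1.21 (edgeR adjusted p 0.00751). Traf1, an adaptor of tumour necrosis factor receptors and an NF-kB target, had 169.6, 93.3 and 183 CPM in TCL 4, 8 and 10, against 80.8, 66.6 and 74.0 CPM in WT 3, 7 and 9. TCL 8 was again the low TCL library. Its call (log2 fold change 1.01, edgeR adjusted p 0.0451) was lost without any single library other than TCL 8, with adjusted p up to 0.138, and with limma-voom, limma-trend and the stricter filter. Traf5 fell by 0.89 on the log2 scale (edgeR adjusted p 0.0323), likewise lost without any single library but TCL 8, with adjusted p up to 0.109. Tank and Irak2 had log2 fold changes of 0.66 and -0.56 and did not pass (edgeR adjusted p 0.0809 and 0.0711). Both passed with DESeq2 (adjusted p 0.0225 and 0.0374), and Tank also without TCL 8 (log2 fold change 0.77, adjusted p 0.0430).

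All 13 kinases had a positive log2 fold change, with a median of 0.36, and 1 of them passed. Ikbke, an IkB kinase related enzyme that also acts in interferon induction, had 122, 177 and 141 CPM in TCL 4, 8 and 10, against 26.7, 52.8 and 39.7 CPM in WT 3, 7 and 9. TCL 8 had the highest level of all libraries, and the log2 fold change was 1.88 (SE 0.25, edgeR adjusted p 0.00439), or 3.69-fold. Map3k14, the kinase at the head of the noncanonical branch, had 136, 102 and 177 CPM in TCL 4, 8 and 10, against 98.5, 73.4 and 98.5 CPM in WT 3, 7 and 9. TCL 8 was the lowest TCL library but still above the WT libraries. Its log2 fold change of 0.62 did not pass (edgeR adjusted p 0.137), and neither did that of Ikbkb, the catalytic subunit of the canonical kinase complex (0.51, adjusted p 0.169). Both passed without TCL 8 (adjusted p 0.0374 and 0.0431).

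Of 15 genes that write, edit or bind ubiquitin chains or RNA in this pathway, 2 rose and 13 did not pass. Tnip1, a partner of A20, had 213, 159 and 252 CPM in TCL 4, 8 and 10, against 95.7, 60.0 and 108.9 CPM in WT 3, 7 and 9. Its log2 fold change of 1.24 (edgeR adjusted p 0.0252) lost its call without WT 3, WT 7, TCL 4 or TCL 10, with adjusted p up to 0.0803. N4bp1, an inhibitor of NF-kB signalling, had a log2 fold change of 1.06 (SE 0.16, edgeR adjusted p 0.00765). Zc3h12a, the RNase Regnase-1, and Tnip3 had log2 fold changes of 0.51 and -0.88 and did not pass (edgeR adjusted p 0.0782 and 0.0918), but did with DESeq2 (0.0410 and 0.0292). The 9 other IkB or NF-kB binding genes did not pass in edgeR, and their median log2 fold change was -0.16. The smallest unadjusted p-values there were 0.0828 for Nkiras2 (log2 fold change 0.80) and 0.107 for Nfkbil1 (-0.38).

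Calls among the 28 tested target genes were 6 upward and 2 downward, and Traf1, Tnip1 and Il1b are also in lists above. Tnfaip2 had 235, 246 and 255 CPM in TCL 4, 8 and 10, against 94.1, 130.4 and 94.3 CPM in WT 3, 7 and 9, a log2 fold change of 1.21 (edgeR adjusted p 0.00562). The superoxide dismutase gene Sod2 had a log2 fold change of 0.95 (edgeR adjusted p 0.0109), which missed the threshold without WT 9 (0.0535). The interferon response factor gene Irf1 had a log2 fold change of 0.65 (edgeR adjusted p 0.0413), a call that held when TCL 8 was left out and was lost with each of the others. Ccl22, a chemokine of mature dendritic cells that draws regulatory T cells, had 2.66, 1.47 and 4.08 CPM in TCL 4, 8 and 10, against 39.0, 36.4 and 54.5 CPM in WT 3, 7 and 9. It fell by 3.98 on the log2 scale (SE 0.36, edgeR adjusted p 0.000888). The maturation marker Cd83 fell by 0.95 (edgeR adjusted p 0.0406). Leaving out WT 3, WT 9, TCL 4 or TCL 10 ended its call, with an adjusted p of up to 0.138. Icam1 and Csf2 had log2 fold changes of 0.81 and -1.85 and did not pass (edgeR adjusted p 0.0762 and 0.125). Csf2 reached at most 1.72 CPM, in WT 7. Icam1 passed without TCL 8 (log2 fold change 0.99, adjusted p 0.0170), with no filter (0.0434) and with DESeq2 (0.00933).

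**Figure D4:**
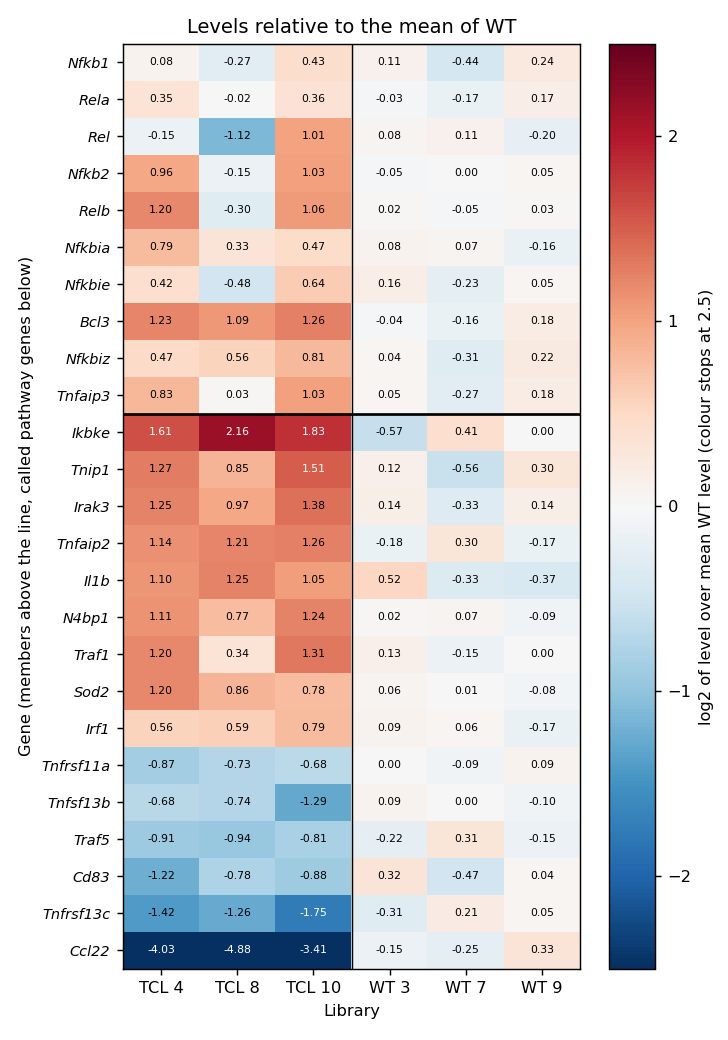
Level of each gene in each library as log2 of its ratio to the mean of WT, TCL libraries left and WT libraries right, with the 10 genes above the line and the 15 called pathway genes below it. The TCL 8 column is pale for Nfkb2 (-0.15), Relb (-0.30) and Tnfaip3 (0.03) but strongly coloured for Bcl3 (1.09) and Ikbke (2.16).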

How the data were processed

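Poly(A) RNA libraries of bone marrow dendritic cells, 3 TCL and 3 WT, were analysed from 1 deposited table. Build mm10 and the tools DESeq2, HTSeq, STAR 2.4.2a and cutadapt are listed in the submitters' processing notes. No source used here gives the annotation or strand setting. The authors deposited a normalized signal per gene and library, per the file headers, whose values behaved as counts divided by a size factor, and their mean, log2 fold change, p-value and adjusted p-value, which are printed only as theirs. In each library 100% of values were whole multiples of what 1 read is worth, within 0.001, and these reads were recovered.

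The reads were tested with edgeR 4.0.16 in R 4.3.3 (filterByExpr, TMM factors, robust quasi-likelihood test, Benjamini-Hochberg adjustment over 13010 genes, threshold 0.05), which was tested on simulated data. Limma 3.58.1 with a trend on log2(value + 1), for the signal as deposited, called 588 genes and edgeR 604. SE is the absolute log2 fold change over the square root of F. CPM are scaled to effective library size. Lengths and positions are from GENCODE M21 (GRCm38, the assembly of mm10). The column numbers do not follow the labels' replicate numbers, so nothing was paired. Alternatives were other scaling, filters, DESeq2 1.42.0, limma-voom, limma-trend and leaving out each library. Named pathway genes are all those called and, per list, the 2 others with the smallest p. For each called member the 3 genes of nearest pattern are named. The members and lists were chosen with earlier results of these data known.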

Additional observations from a re-analysis of the deposited data

How the results depend on the processing

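No paired analysis was possible because the columns do not carry the replicate numbers of the labels. The number of all genes called was 604 and ranged from 246 to 904 when each library was left out. DESeq2 called 1446. With scaling to library size only, 54.3% of calls were higher in TCL, against 43.7% with TMM factors, and of the pathway genes 76.9% against 60.0%. The number of the 10 genes called was 1, but 2 with library size only and 3 with DESeq2, and ranged from 1 to 4 when each library was left out. Of 13010 genes, 264 were called higher in TCL with TMM factors and 352 with library size only. DESeq2 called 700 of 14477 higher. Leaving out 1 library gave from 98 of 13355 (without WT 3) to 475 of 13339 (without TCL 8). The number of pathway genes called was 15, but 23 with DESeq2, and ranged from 7 to 26 when each library was left out. The direction of Rel turned with limma-voom (-0.0405) and with limma-trend (-0.0689 at a pseudocount of 1, -0.0697 at 0.5), and its log2 fold change ranged from -0.533 to 0.544 when each library was left out. That of Nfkb1 ranged from -0.0717 to 0.264 in the same way. None of the other 8 of the 10 genes, the named pathway genes or the 3 genes nearest to Bcl3 turned in these settings, and the cause was not tested. Without length scaling the mean share of subunit transcripts was 34.3% in TCL and 40.6% in WT for Nfkb1, 1.04% and 1.33% for Rel, 18.2% and 14.5% for Relb, and 20.9% in WT for Rela. With merged exons as the length, chosen after seeing the data, it was 14.3% in TCL and 17.8% in WT for Nfkb1, 29.7% and 25.9% for Nfkb2, 0.705% and 0.934% for Rel, and 31.9% and 35.8% for Rela, since the merged exons of Nfkb1 come to 12061 bases against 4117 in its principal transcript.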

Other observations

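Genes whose pattern over the 6 libraries lay nearest to Relb and Nfkb2, looked up after those values were seen, included Ace and Csf1r. Ace, the angiotensin-converting enzyme gene, was nearest to Relb and had 1616, 524 and 1466 CPM in TCL 4, 8 and 10, against 639, 647 and 704 CPM in WT 3, 7 and 9. Csf1r, the receptor for the macrophage growth factor, was the third nearest to Nfkb2 and had 2332, 1170.3 and 2324 CPM in TCL 4, 8 and 10, against 1291, 1138 and 1379 CPM in WT 3, 7 and 9. Neither was called (edgeR adjusted p 0.185 and 0.197).

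Of the pathway genes too low to test, Il6 had 8, 43 and 7 reads in TCL 4, 8 and 10, against 5, 0 and 16 reads in WT 3, 7 and 9. Nos2 had 1, 24 and 0 reads in TCL 4, 8 and 10, against 0, 11 and 0 reads in WT 3, 7 and 9.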
